A study of Homo sapiens with 12 samples.

Results

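The BCL2 family of apoptosis regulators was followed through 10 listed genes in RCC4 cells, a renal cell carcinoma line without working VHL. The genes are the survival proteins BCL2, BCL2L1, MCL1 and BCL2A1, the pore formers BAX and BAK1, and the BH3-only proteins BID, BCL2L11, PMAIP1 and BBC3. The choice was made by gene name. A total of 22 probe sets named exactly 1 of these symbols, and they covered 9 of the 10 genes among the 11963 genes with a value. The 1 probe set that lists BBC3 names 3 genes, so BBC3 is not analysed here. Each gene is described by whichever of its probe sets was brightest on average, and the other 13 probe sets are given beside it.

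RNA was measured on 12 one-colour arrays, 3 in each of 4 groups, labelled as biological replicates with no word on separate cultures. P-values then measure the spread between these arrays, which may in part be technical. The groups were RCC4 cells carrying the vector alone (Vec) or reconstituted with VHL (VHL), each held for 6 h in full DMEM (control) or in DMEM lacking cystine (deprived). All groups share the RCC4 background. Dialysed serum is mentioned for the deprived medium alone, so a change of serum and the loss of cystine cannot be told apart if the control serum was not dialysed. The labels do not say whether either line is a clone or a pool. The title names a cystine addiction, with programmed necrosis, of renal carcinoma lacking VHL. The comparisons of this gene family therefore ask how regulators of apoptosis were set in each line and what cystine loss did to them.

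Proteins of the BCL2 family control whether the outer mitochondrial membrane becomes permeable. BAX and BAK1 form the pores that release cytochrome c, survival members such as BCL2 bind and restrain them, and BH3-only proteins sense stress and either block the survival members or activate the pore formers directly. VHL picks the substrates of a ubiquitin ligase and so marks hypoxia-inducible factors (HIF) for degradation in the presence of oxygen, and BNIP3 and BNIP3L, distant relatives of this family, are known HIF targets. Cystine is the main source of cysteine for cultured cells, and its loss sets off the amino acid response, in which the transcription factor ATF4 raises a set of stress genes.

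The deposited values are log2 expression values, and array medians lay between 7.12 and 7.18. All 7 markers of renal epithelium and renal carcinoma on a list (PAX8, PAX2, CDH2, VIM, KRT8, KRT18, KRT19) lay above the dim range, here a mean at or under 6.96, the 40th percentile of gene means. The 4 measured proximal tubule markers and the 4 endothelial markers were all dim, as were the measured blood markers other than HBB. Of 9 measured HIF targets, 8 were called lower in VHL than in Vec cells in each medium, where 23% of all genes were called lower. These included EGLN3 at -3.24 and ADM at -3.56 on the log2 scale in control medium. PFKFB4, which is dim, gave -0.27 in control and -0.25 in deprived medium and was not called. Of the 7 renal markers, KRT19, KRT8 and VIM were called lower in VHL cells in both media. In deprived medium alone, PAX8 was called lower, at -0.18, and PAX2 higher, at 0.30. The log2 of the summed level of the 7 lay between 15.05 and 15.10 in Vec and between 14.83 and 14.93 in VHL arrays. The part of this in the differences between the lines was not tested. In cell lines measured in bulk, fewer cells expressing a gene and less RNA per cell cannot be told apart.

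A period of 6 h without cystine raised PMAIP1 in both lines, 1.59-fold in Vec cells and 2.24-fold in VHL cells. PMAIP1 encodes NOXA, a BH3-only protein that binds MCL1 and BCL2A1. None of the other 8 members passed the test in either line, though BCL2L1 in VHL cells came close (limma adjusted p = 0.0511). With 9 members, 1 call in each line stands beside 4.18% of all genes called in Vec and 11.6% in VHL cells. These counts alone say little about the family. In control medium, VHL cells had less PMAIP1, BCL2A1, BCL2L1 and BID and more BCL2 than Vec cells, and the same held in deprived medium.

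**Figure D1:**
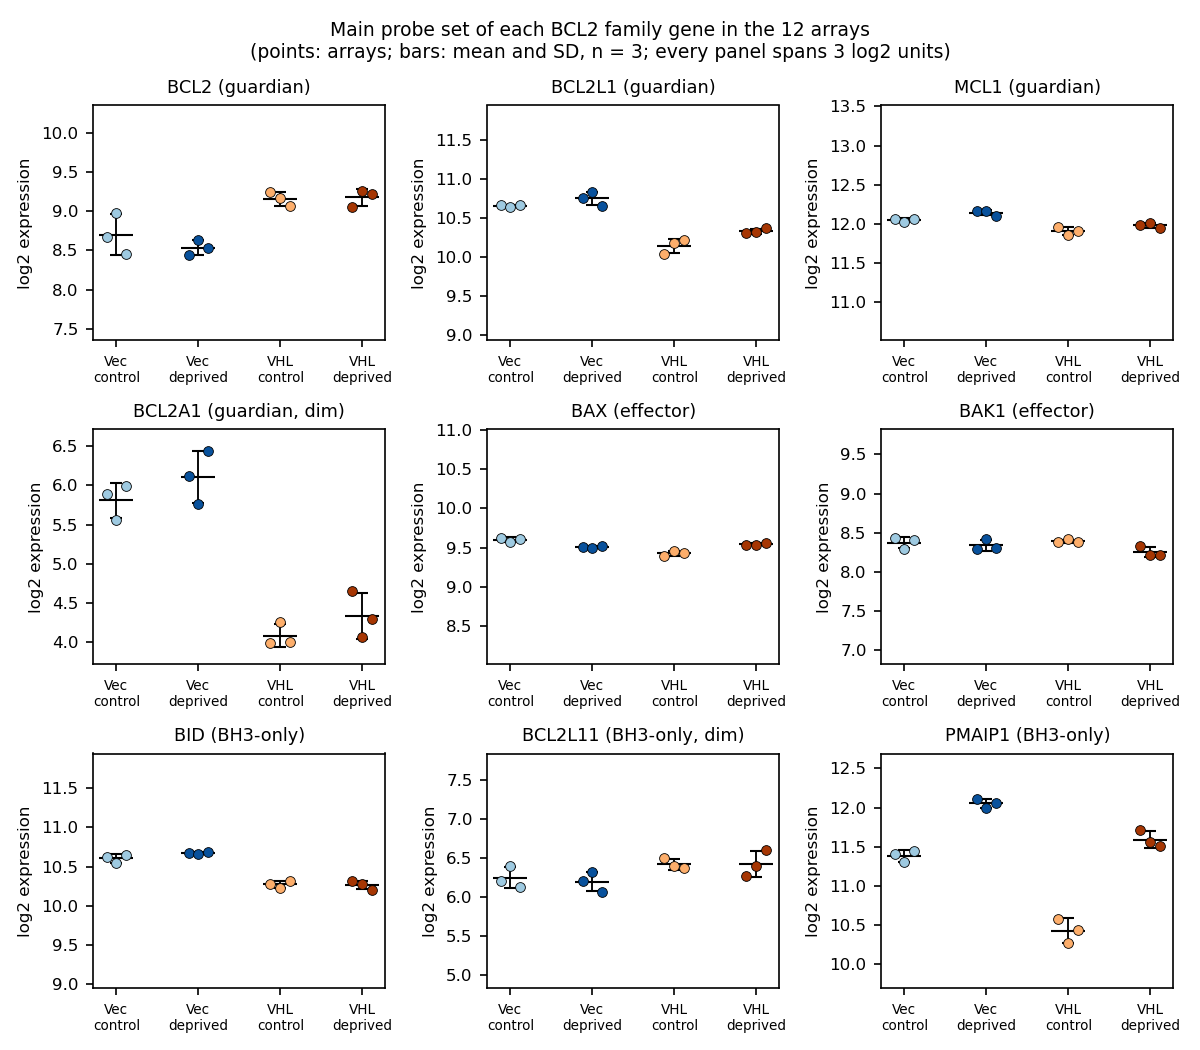
Log2 expression of the main probe set of each of the 9 measured genes in the 12 arrays, with the mean and SD of each group of 3, every panel spanning the same height. PMAIP1 separates all 4 groups, from a mean of 10.43 in VHL control to 12.06 in Vec deprived cells, and BCL2A1 separates the lines.

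The control region of PMAIP1 is shown because this gene carries the response to deprivation, and that of BCL2A1 because this gene differs most between the lines. Both windows run from 250 bases before to 50 after the transcription start in RefSeq (build GRCh38.p14), PMAIP1 at chr18:59899746-59900045 on the plus strand and BCL2A1 at chr15:79971147-79971446 on the minus strand. Capitals mark matches, on either strand, to 4 short motifs. These are TGATGNAA, the core of the element bound by ATF4 with a partner, TGACGT, most of a cyclic AMP response element, and ACGTG and GCGTG, the core of the hypoxia response element.
PMAIP1: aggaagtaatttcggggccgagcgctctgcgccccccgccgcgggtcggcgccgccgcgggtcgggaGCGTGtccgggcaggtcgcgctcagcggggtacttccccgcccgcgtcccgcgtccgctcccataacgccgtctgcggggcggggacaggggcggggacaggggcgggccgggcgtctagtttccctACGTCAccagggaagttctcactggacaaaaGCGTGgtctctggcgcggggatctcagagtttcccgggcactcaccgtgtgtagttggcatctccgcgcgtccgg
BCL2A1: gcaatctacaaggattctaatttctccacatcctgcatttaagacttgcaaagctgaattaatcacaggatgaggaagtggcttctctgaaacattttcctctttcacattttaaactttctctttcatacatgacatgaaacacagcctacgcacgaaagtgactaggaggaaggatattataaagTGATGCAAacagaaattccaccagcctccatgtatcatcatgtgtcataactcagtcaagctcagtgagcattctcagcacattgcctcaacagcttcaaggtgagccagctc

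The PMAIP1 window holds TGACGT once, read on the opposite strand and beginning 56 bases before the start, and GCGTG at 2 sites. The BCL2A1 window holds TGATGNAA once, beginning 63 bases before the start. Over 35116 promoter windows of this length, TGATGNAA occurs in 3.62%, TGACGT in 7.98%, ACGTG in 21.4% and GCGTG in 36.5%. TGACGT was added to the search after this sequence had been seen, and the full palindrome TGACGTCA, found in 1.85% of windows, occurs in none of the members' windows. Promoter windows were found for 9 of the 10 listed genes, 14 windows in all. Among these 14 windows that of BAX held the most ACGTG sites, 5 separate ones. How many of all windows hold several sites was not counted. Matches of ACGTG overlap on both strands when it sits inside CACGTG. Such matches describe letters only and do not show that a factor binds.

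PMAIP1 was called in Vec cells, and it was the single call among the 9 members, against 4.18% of all 11963 genes called there (limma adjusted p under 0.05). The 3 Vec control arrays read 11.41, 11.30 and 11.45, and the 3 Vec deprived arrays read 12.11, 11.998 and 12.06. Every deprived array lay above every control array. The log2 difference was 0.67 ± 0.08 (SE, n = 3 per group), with a limma adjusted p of 3.09e-04.

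In VHL cells PMAIP1 was again the only member called, where 11.6% of all genes were. Its VHL control arrays read 10.58, 10.27 and 10.43 and its VHL deprived arrays 11.71, 11.56 and 11.51. The groups lay far apart, without overlap. The difference was 1.16 ± 0.08 (SE, limma adjusted p = 9.57e-07, n = 3 per group). A second PMAIP1 probe set was called in both lines, at 0.70 ± 0.09 (limma adjusted p = 4.96e-04) in Vec and 0.99 ± 0.09 in VHL cells.

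Responses of PMAIP1 differed between the lines by 0.49 ± 0.11 on the log2 scale, VHL minus Vec, with a 95% interval from 0.25 to 0.73. This difference was not called (unadjusted p = 7.34e-04, limma adjusted p = 0.183). The second probe set gave 0.30, with an interval from 0.03 to 0.56. None of the 9 members was called in this comparison by limma, where 0.134% of all genes were, and 2 members, PMAIP1 and BAX, had an unadjusted p under 0.05. In deprived VHL cells PMAIP1 reached a mean of 11.59, above the 11.39 of Vec cells in control medium. The order of group means was Vec deprived, VHL deprived, Vec control and VHL control, and no neighbouring groups overlapped on the main probe set. The second probe set gave the same order. There, VHL deprived replicate 1, at 9.803, lay just below Vec control replicate 2, at 9.806, so these neighbouring groups overlapped.

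No survival member was called on deprivation in either line. BCL2L1, which encodes BCL-XL, read 10.04, 10.18 and 10.21 in VHL control and 10.31, 10.32 and 10.37 in VHL deprived arrays. These groups did not overlap, but the difference of 0.19 ± 0.06 just missed the threshold (limma adjusted p = 0.0511). It was called with quantile normalization (0.0346), without dim genes (0.0223), with a variance trend (0.0139) and without VHL control replicate 3 (0.0426), so the side of the threshold rests on such choices. In Vec cells BCL2L1 gave 0.09 ± 0.06 (limma adjusted p = 0.454). MCL1, a short-lived survival protein and the main partner of NOXA, gave 0.09 in Vec cells, with an interval from -0.01 to 0.19, and 0.07 in VHL cells, from -0.03 to 0.17.

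BCL2, the founding survival member, gave -0.17 in Vec cells, with an interval from -0.40 to 0.07, and 0.02 in VHL cells, from -0.21 to 0.25. BCL2A1 gave 0.30 (-0.08 to 0.68) and 0.25 (-0.12 to 0.63). The BCL2A1 interval in Vec cells thus reaches the size of the PMAIP1 response there, while that of BCL2 does not.

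The pore formers gave small differences. BAX read 9.63, 9.57 and 9.61 in Vec control and 9.51, 9.49 and 9.52 in Vec deprived arrays, all lower. In VHL cells it read 9.39, 9.45 and 9.43 in control and 9.54, 9.53 and 9.55 in deprived medium, all higher. Neither response was called. The log2 difference was -0.09 ± 0.04 in Vec cells (limma adjusted p = 0.262), and VHL cells gave 0.12 ± 0.04 (limma adjusted p = 0.0892). The second BAX probe set gave 0.04 in Vec cells, where its groups overlapped, and 0.17 in VHL cells, so the lower values in Vec cells were seen on the main probe set alone. The VHL value of BAX was called without dim genes (0.0334) and with the mean of the 2 BAX probe sets (0.0430). BAK1 gave -0.03 ± 0.05 in Vec cells and -0.14 ± 0.05 in VHL cells (limma adjusted p = 0.122). Its VHL deprived arrays, at 8.33, 8.21 and 8.22, lay below the VHL control arrays, at 8.38, 8.42 and 8.38.

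The other measured BH3-only members were not called in either line. BID, which caspase 8 cuts to link death receptors to mitochondria, gave 0.07 in Vec cells (-0.04 to 0.17) and -0.01 in VHL cells (-0.11 to 0.10). BCL2L11, which encodes BIM, gave -0.05 (-0.25 to 0.15) and 0.003 (-0.20 to 0.20), but both of its probe sets are dim and cannot show that the transcript was unchanged. Over the 9 members the median response was 0.07 in either line, beside 0.01 over all genes.

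**Figure D2:**
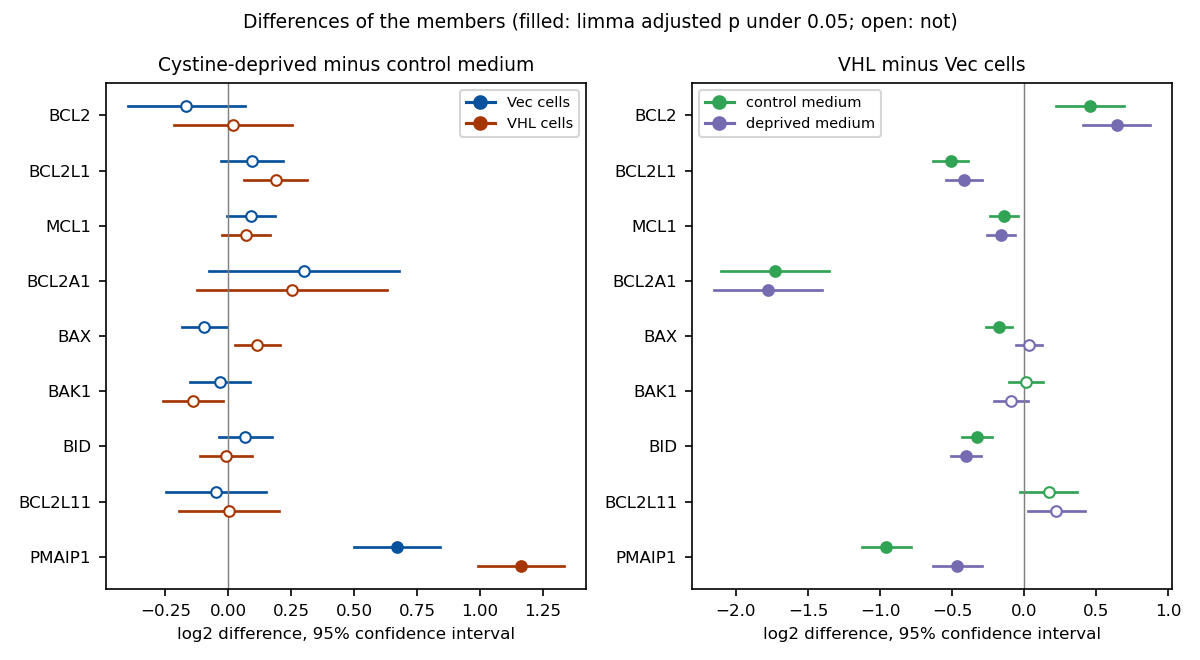
Log2 differences of the 9 members with 95% confidence intervals, for deprivation in each line on the left and for VHL against Vec cells in each medium on the right, with filled points where the limma adjusted p is under 0.05. PMAIP1 is the only filled row on the left, at 0.67 and 1.16, and BCL2 is the only member filled on the positive side on the right.

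More members were called between the lines than between the media, although the PMAIP1 difference in VHL cells between media, 1.16, exceeded its differences between lines, -0.96 and -0.47, in size. In control medium 7 of the 9 members were called between VHL and Vec cells, 6 lower and 1 higher in VHL, where 46.1% of all genes were called. In deprived medium 6 were called, 5 lower and 1 higher, against 47.2% of all genes. Over all genes 23% were called lower in each medium. The median difference over the members was -0.18 in control and -0.16 in deprived medium, beside -0.00082 and 0.00346 over all genes. With so many genes of the array called, these counts alone say little, and the sizes of the single members are given next.

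PMAIP1 was lower in VHL cells by 0.96 ± 0.08 on the log2 scale in control medium, or 1.94-fold (limma adjusted p = 3.22e-07). In deprived medium its difference was -0.47 ± 0.08 (limma adjusted p = 2.38e-04). All VHL arrays lay below all Vec arrays of the same medium. The second probe set gave -0.80 and -0.50.

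BCL2A1, a survival protein known as an NF-kB target, showed the widest gap. Its Vec control arrays read 5.89, 5.55 and 5.99 and its Vec deprived arrays 6.12, 5.77 and 6.44. VHL control arrays read 3.99, 4.25 and 3.997, and VHL deprived arrays 4.65, 4.06 and 4.29. Every VHL array lay below every Vec array. The difference was -1.73 ± 0.17 in control medium (3.32-fold, limma adjusted p = 2.22e-06) and -1.78 ± 0.17 in deprived medium. Its mean sits at percentile 12.2 of all gene means, so the probe set is dim and its fold is limited by background signal.

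BID was lower in VHL cells on both of its probe sets. The main one read 10.62, 10.54 and 10.64 in Vec control and 10.28, 10.22 and 10.32 in VHL control arrays, with no overlap. It gave -0.33 ± 0.05 in control medium (limma adjusted p = 6.84e-05) and -0.41 ± 0.05 in deprived medium. The other probe set gave -0.73 and -0.77, so the size of the gap depends on the probe set and its direction did not.

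BCL2L1 was lower in VHL cells on all 3 of its probe sets. The main one read 10.66, 10.64 and 10.67 in Vec control arrays, all above the VHL control values given above. The difference was -0.51 ± 0.06 in control medium (1.42-fold, limma adjusted p = 5.90e-06) and -0.42 ± 0.06 in deprived medium. The other probe sets gave -0.36 and -0.57 in control medium and were called in both media, but the probe set at -0.57 is dim.

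BCL2 was the only member called higher in VHL cells. Vec control arrays read 8.67, 8.98 and 8.46 and VHL control arrays 9.25, 9.17 and 9.07. Deprived arrays read 8.44, 8.63 and 8.54 in Vec and 9.06, 9.26 and 9.22 in VHL cells. The lowest VHL array lay above the highest Vec array in each medium. The difference was 0.46 ± 0.11 in control (1.37-fold, limma adjusted p = 0.00306) and 0.64 ± 0.11 in deprived medium (1.56-fold, limma adjusted p = 2.19e-04). The other 3 BCL2 probe sets are dim. One of them was called in control medium at 0.33, and none of these 3 was called in deprived medium, where their differences were 0.06 to 0.24 (lowest unadjusted p = 0.0428, 1 of 3 under 0.05).

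MCL1 has 5 probe sets, and they disagree. The main one read 12.07, 12.03 and 12.06 in Vec control and 11.96, 11.86 and 11.90 in VHL control arrays. It gave -0.14 ± 0.04 in control (limma adjusted p = 0.0178) and -0.16 ± 0.04 in deprived medium (limma adjusted p = 0.00787). A probe set whose name marks possible cross-hybridization gave 0.36 and 0.29 in the opposite direction, and a further one gave 0.35 and 0.25. These 2 probe sets were also called in both media, and the remaining 2 were called in neither (unadjusted p from 0.138 to 0.781, none under 0.05). Of the remaining 2, the probe set at -0.16 in control medium is dim. With the mean of all probe sets MCL1 gave 0.0662 in control medium (limma adjusted p = 0.333), and its call there was also lost without probe sets suffixed _x_at or _s_at (0.396), with median centring (0.0567) and without Vec control replicate 1 (0.0533), Vec control replicate 3 (0.0519) or VHL control replicate 2 (0.0771). In deprived medium the call was lost with the mean of all probe sets, at 0.0525 (limma adjusted p = 0.448), and without those suffixed probe sets, at -0.0852 (0.3001). The direction of MCL1 between the lines thus depends on the probe set.

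**Figure D3:**
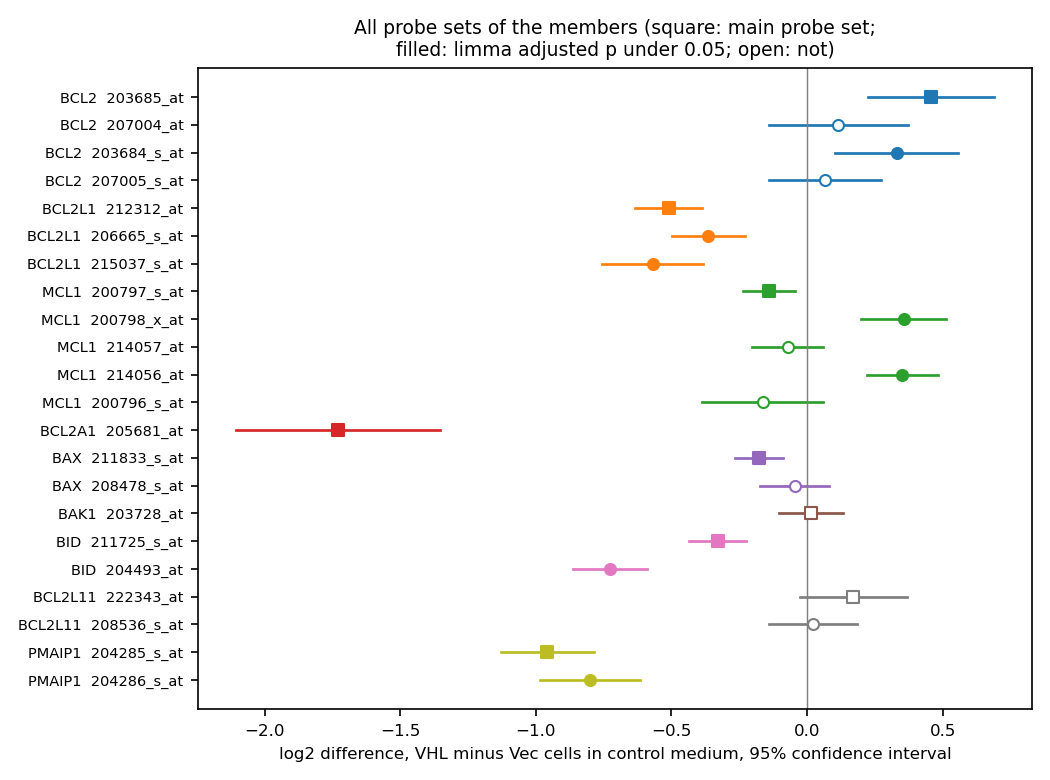
Log2 difference between VHL and Vec cells in control medium for all 22 probe sets of the members, with 95% confidence intervals, squares for main probe sets and filled symbols for a limma adjusted p under 0.05. The 3 BCL2L1, 2 BID and 2 PMAIP1 probe sets lie below 0 while the 5 MCL1 probe sets fall on both sides, from -0.16 to 0.36.

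BAX was lower in VHL cells in control medium by 0.18 ± 0.04 (limma adjusted p = 0.00282) and gave 0.03 ± 0.04 in deprived medium (limma adjusted p = 0.539), where the VHL arrays still lay just above the Vec arrays. Its other probe set gave -0.05 in control medium and was not called. BAK1 gave 0.02 (-0.10 to 0.13) in control and -0.09 (-0.21 to 0.03) in deprived medium, and neighbours in the order of its 4 group means overlapped. BCL2L11 gave 0.17 ± 0.09 in control (limma adjusted p = 0.153) and 0.22 ± 0.09 in deprived medium (limma adjusted p = 0.0616). The latter was called when its 2 probe sets were averaged (0.0389), and also without Vec deprived replicate 2 (0.0346) or VHL deprived replicate 1 (0.0217).

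Other relatives of the family were read from a list of 14 genes, of which 11 had values. In Vec cells none was called on deprivation by limma, where 4.18% of all genes were, and none had an unadjusted p under 0.05. Of the 11, BCL2L10, BCL2L14, BOK and BIK are dim and cannot show that their transcripts were unchanged. In VHL cells, where 11.6% of all genes were called, 2 of the 11 rose, BCL2L2, the survival protein BCL-W, by 0.55 ± 0.07 (limma adjusted p = 4.36e-04), and HRK, a BH3-only protein best known from neurons, by 0.35 ± 0.07 (limma adjusted p = 0.00529). Their differences between the lines, 0.46 and 0.32, were not called (limma adjusted p = 0.178 and 0.303). Between VHL and Vec cells in control medium 5 of the 11 were called, 4 lower and 1 higher, a share near the 46.1% of all genes. BNIP3 gave -1.94, BNIP3L -1.33, BCL2L2 -0.68 and BAD, a BH3-only protein controlled by phosphorylation, -0.49, while HRK gave 0.74. The same 5 were called in deprived medium, with BNIP3 at -2.04, BNIP3L at -1.40, BAD at -0.43, BCL2L2 at -0.22 and HRK at 1.05.

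Downstream of the pore, 11 of 13 listed apoptosome, released and executioner genes had values. APAF1, the scaffold on which caspase 9 is activated, fell in both lines, by 0.42 ± 0.10 in Vec cells, where limma gave an adjusted p of 0.0392, and by 0.35 ± 0.10 in VHL cells, where it gave 0.0446. CASP6, an executioner caspase, fell in Vec cells by 0.23 ± 0.05 (limma adjusted p = 0.0269). Over all genes 2.06% were called lower in Vec and 5.48% in VHL cells. None of the list was called higher, where 2.11% of all genes were in Vec and 6.16% in VHL cells. With 11 genes this absence says little. Between the lines in control medium 5 of the 11 were called, 2 higher and 3 lower in VHL cells, again near the 46.1% of all genes. These were AIFM1, a flavoprotein of the mitochondrial intermembrane space, at 0.84, CASP9 at 0.63, ENDOG, a mitochondrial nuclease, at -0.80, VDAC2, an outer membrane channel that holds BAK1, at -0.50 and DIABLO, an IAP antagonist, at -0.32. In deprived medium, against 47.2% of all genes, 4 were higher and 3 lower, and the 5 with the smallest adjusted p were the same genes, AIFM1 at 0.94, ENDOG at -0.69, VDAC2 at -0.50, CASP9 at 0.42 and DIABLO at -0.22.

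Of 7 inhibitor of apoptosis (IAP) genes, 5 had values and none was called by limma on deprivation. Over all genes 4.18% were called in Vec and 11.6% in VHL cells. An unadjusted p under 0.05 was found for 1 of 5 in Vec and 2 of 5 in VHL cells. XIAP, BIRC7 and NAIP are dim and cannot show that their transcripts were unchanged. Between the lines 1 of the 5 was called in control and 2 in deprived medium, against 46.1% and 47.2% of all genes. BIRC2, which encodes cIAP1, was lower in VHL cells by 0.33 in control and 0.26 in deprived medium. BIRC5, survivin, was higher by 0.13 in deprived medium (limma adjusted p = 0.0471). Of 6 genes for enzymes that add or remove ubiquitin on MCL1 protein, none was called in Vec cells by limma (1 under an unadjusted p of 0.05). In VHL cells 1 was called, the deubiquitinase USP13, at -0.18, against 11.6% of all genes. Between the lines in control medium 5 of the 6 were called, against 46.1% of all genes. Of these, 3 were higher in VHL cells, with USP13 at 0.82, USP9X at 0.24 and HUWE1 at 0.19, and 2 were lower, with MARCHF5 at -0.59 and FBXW7 at -0.45. The same 5 were called in the same directions in deprived medium, USP13 at 0.79, HUWE1 and USP9X at 0.14, MARCHF5 at -0.50 and FBXW7 at -0.34.

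Some of the transcription regulators known to act on BH3-only genes rose on deprivation. In Vec cells 4 of 11 measured regulators rose and none fell, where 2.11% of all genes were called higher. These were DDIT3 (CHOP) at 0.93 and ATF3, CEBPB and TRIB3 at 0.82 each. In VHL cells 6 of 11 rose and none fell, where 6.16% of all genes were called higher, led by DDIT3 at 1.54, ATF3 at 1.58, TRIB3 at 1.21, CEBPB at 0.92 and ATF4 at 0.44. TP73, FOXO1, FOXO3, E2F1 and JUN were called in neither line, and E2F1 and JUN gave -0.13 and -0.09 in Vec cells. TP73 and FOXO1 are dim and cannot show that their transcripts were unchanged. The list median was 0.18 in Vec and 0.29 in VHL cells, beside 0.01 over all genes in each. This list was chosen with earlier results of these data known. Its counts and median, here and between the lines, are therefore no independent test. The response was larger in VHL cells for ATF3, by 0.76 (limma adjusted p = 0.00523), DDIT3, by 0.60 (0.0100), and ATF4, by 0.33 (0.0416). Over all genes 0.134% had a called difference of responses.

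Between the lines 9 of the 11 regulators were lower in VHL cells in control medium and none higher, where 23% of all genes were called lower. Among them were JUN at -1.42, ATF3 at -1.40, TRIB3 at -0.85, MYC at -0.81 and ATF4 at -0.72. In deprived medium 7 were lower, where 23% of all genes were called lower. These included JUN at -1.28, MYC at -0.71, ATF3 at -0.63, FOXO3 at -0.50 and ATF4 at -0.39. DDIT3 was higher there, at 0.18, where 24.2% of all genes were called higher. ATF3, TRIB3 and CEBPB had the same order of group means as PMAIP1, and the other regulators did not. DDIT3 was highest in VHL deprived cells, at 9.49, and ATF4 was higher in Vec control, at 12.95, than in VHL deprived cells, at 12.67. The ATF3 arrays read 8.67 to 8.73 in Vec control, 9.49 to 9.56 in Vec deprived, 7.20 to 7.37 in VHL control and 8.80 to 9.05 in VHL deprived cells.

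**Figure D4:**
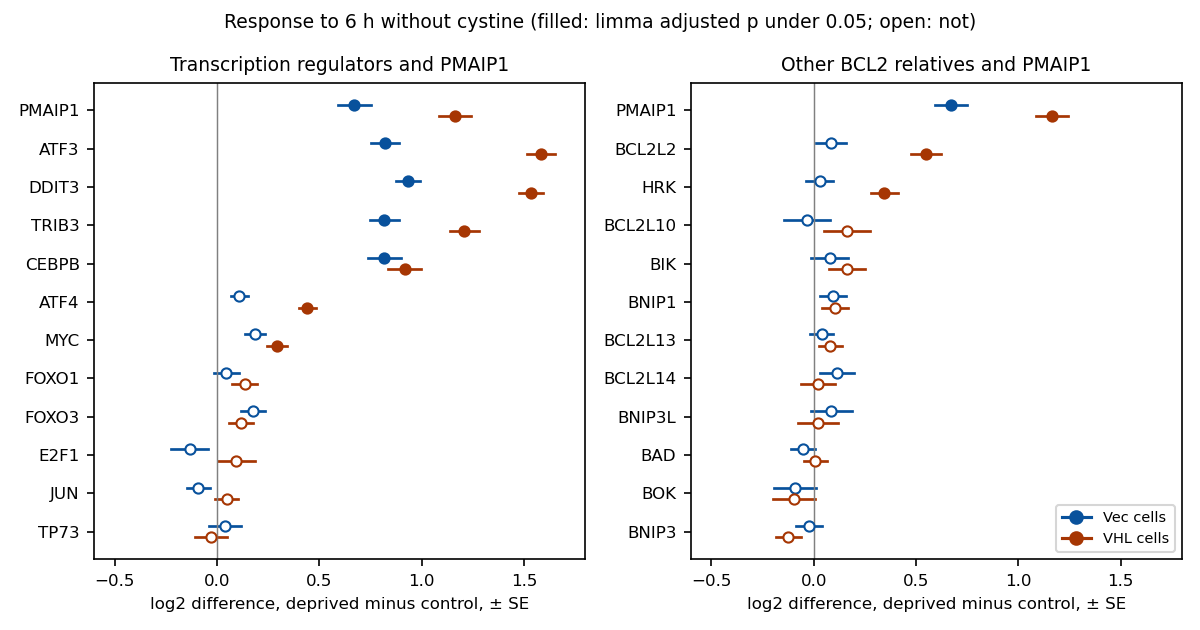
Log2 response to deprivation, with its SE, of PMAIP1 beside 11 transcription regulators on the left and beside 11 other BCL2 relatives on the right, blue for Vec and brown for VHL cells, filled where the limma adjusted p is under 0.05. PMAIP1, ATF3, DDIT3, TRIB3 and CEBPB are filled in both lines, and among the relatives only BCL2L2 and HRK are filled, both in VHL cells.

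Among the 7177 other genes that are not dim, those whose levels followed PMAIP1 most closely over the 12 arrays were PPP1R15A, a phosphatase subunit of the stress response (Pearson r = 0.992), ATF3 (0.990) and TRIB3 (0.989). With group means removed the same pairs gave 0.546, 0.474 and 0.622, and all of these values come from the same 12 arrays. BID was most like PLEK2 (0.996), NOL12 and ITGA5, BCL2L1 most like CST3 (0.989), EXT1 and RPL35, and BCL2A1 most like PDHA1 (0.986), MMP14 and MRPL17. BCL2 was closest to PLK2 (0.978), IL18 and APOOL, MCL1 to PMM1 (0.973), LARP6 and KRABD4, and BAX to RABAC1 (0.858), C16orf95 and PRDM4. These values are descriptions, and 46.1% of all genes differed between the lines in control medium.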

How the data were processed

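Expression was measured on 12 arrays. The authors deposited log2 values per probe set in the series matrix, 22215 probe sets in all. The unit was read from the values (3.26 to 14.8), and no normalization method is given in the sources used here. No further scaling was applied. Probe sets were named through the platform annotation, 19064 with 1 gene, 1043 with several and 2108 with none, and 19052 symbols were updated through RefSeq (GRCh38.p14).

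The model in limma 3.58.1 (R 4.3.3) held 1 mean for each of the 4 groups, with 8 residual degrees of freedom (12.7 after moderation) and two-sided p-values adjusted by Benjamini-Hochberg over 11963 genes, or over 19064 probe sets for the members' other probe sets. A gene is called at an adjusted p under 0.05. Errors are standard errors of the fit. The script was tested on simulated data. Members and lists were chosen with earlier results of these data known. All members are named, and of each list up to 5 called genes per comparison by smallest adjusted p. The precision is limited by the 3 arrays per group. No 2 arrays of the same group held identical values (12 pairs).

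Replicate numbers were not taken as pairs. Residuals of same-numbered arrays correlated from -0.268 to 0.235 (median 0.0526, 18 pairs). The alternatives were other probe set choices, 2 normalizations, a filter on dim genes, another variance model, fits of the compared groups alone, a replicate block and leaving out each array.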

Additional observations from a re-analysis of the deposited data

Results flagged for a closer look

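BAX was singled out because its response on the main probe set turned between the lines, with every deprived array below every control array in Vec cells and above in VHL cells. The responses were -0.09 in Vec and 0.12 in VHL cells, and their difference, VHL minus Vec, was 0.21 ± 0.06 on the log2 scale. The test of that difference gave an unadjusted p of 0.00319 and a limma adjusted p of 0.279, so it was not called. The second BAX probe set showed no such turn, with 0.04 in Vec cells, where its groups overlapped, and 0.17 in VHL cells. Its difference was 0.13 with an interval from -0.05 to 0.32.

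Of 53 genes examined in this way, 3 transcription regulators had a called difference of responses. These were ATF3 at 0.76 (limma adjusted p = 0.00523), DDIT3 at 0.60 (limma adjusted p = 0.0100) and ATF4 at 0.33 (limma adjusted p = 0.0416). Over all genes 0.134% had such a call, and the 53 come from lists chosen with earlier results of these data known. In VHL cells ATF4 rose by 0.44, against 0.11 in Vec cells, from a lower start. The part of the starting level in these differences was not tested.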

How the results depend on the processing

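Of 700 values of single members under the alternatives, 683 kept their call and, where called, their direction. Both reversals were MCL1 between the lines with the mean of its probe sets, at 0.0662 in control and 0.0525 in deprived medium. PMAIP1 was called in each comparison but the difference of responses under every alternative that measured it, from 0.629 to 0.702 in Vec and 1.08 to 1.24 in VHL cells on deprivation. The difference of its responses was never called (adjusted p from 0.0540 to 0.379). Dropping probe sets with the suffix _x_at or _s_at leaves none for PMAIP1 and BAX, and the members called were 0 of 7 for deprivation in Vec cells, 0 in VHL cells and 4 between the lines in control medium. In VHL cells the single call on deprivation became 2 with the mean of probe sets, quantile normalization or the variance trend, and 3 without dim genes. Leaving out each array gave 1 or 2, with 2 without VHL control replicate 3. With the replicate block, members called were 1 in Vec and 1 in VHL cells on deprivation, 0 for the difference of responses, and 7 and 6 between the lines, and no member's call changed. Over all genes the block gave 434 in place of 500 calls in Vec cells. Median centring shifted the median of all genes by -0.0292 to 0.0258. Dim values of BCL2A1, BCL2L11, 3 BCL2 probe sets and a further probe set each of BCL2L1 and MCL1 limit what can be read from them.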
